A study of Mus musculus and Rattus norvegicus with 21 samples.

Results

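A set of 38 Hox genes of the mouse was examined in the thyroid gland, cluster by cluster and by paralog number. They were chosen by name, and all 38 were found among the 21000 protein-coding genes of the RefSeq annotation. Of these, Hoxa and Hoxb held 10 each, and Hoxc and Hoxd held 9 each. Chromatin immunoprecipitation sequencing (ChIP-seq) lists of peaks, the intervals where reads of an antibody pull-down pile up, were available for the histone marks H3K4me3 and H3K27me3 in 4 groups of C57BL/6 mice aged 1 month, with 1 library per mark in each group. The groups were wild-type (WT) mice and Glis3-deficient mice carrying B6.Glis3<tm2(mCherry)Amj> (KO), each on the NIH-31 normal diet (ND) or on a low iodine diet (LID, TD.95125), which raises thyroid-stimulating hormone. The labels name no thyroid-specific driver for this allele, and the methods give it another allele number. GLIS3 is a zinc finger transcription factor of the thyroid follicular cell. Lists for the transcription factors NKX2.1 and PAX8 came from WT mice on LID as labelled, again with 1 library each. The methods instead describe older mice of a Glis3-EGFP line for these 2 factors, fed LID for longer than the mice of the histone marks. With 1 library per group no difference has a replicate check, so values are given per library and no test was run. Depth is unknown, because the lists hold intervals without read counts.

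Hox genes encode homeodomain transcription factors that give cells their position along the head to tail axis. They lie in 4 clusters in which all genes point the same way, and genes with low paralog numbers are used anteriorly and genes with high numbers posteriorly. Polycomb complexes keep unused Hox genes silent and leave H3K27me3 over long domains, whereas H3K4me3 sits at promoters that are active or poised. The thyroid forms from anterior endoderm of the pharynx, and the paralog 3 genes are known for their part in the formation of the thyroid, parathyroid and thymus.

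The gland is a mixture of cells, so fewer cells of one type and less of a mark per cell cannot be told apart, and both marks at one start site may come from different cells or alleles. Of 8 thyroid follicular cell markers, 7 carried H3K4me3 within 1 kb of a transcription start site (TSS) in WT ND, 8 in KO ND, 6 in WT LID and 8 in KO LID. Tg, the gene of thyroglobulin, had no H3K4me3 peak within 1 kb of its TSS in either WT library. Of the markers of other cells, H3K4me3 was found at 1 to 2 of 4 C cell genes, up to 1 of 3 parathyroid genes, 1 to 3 of 5 fibroblast genes, 2 to 4 of 4 endothelial genes, 1 of 3 adipocyte genes and none of 4 immune or 4 skeletal muscle genes. Their part in the Hox values was not tested. The KO LID list of H3K27me3 stood apart, with 18040 peaks over 55.11 Mb against 2631 to 4116 peaks over 7.472 to 13.26 Mb in the other 3, so results with this mark are given with and without it. The 4 H3K4me3 lists were more alike, at 15692 to 17044 peaks and 22.56 to 26.73 Mb.

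H3K27me3 covered most Hox start sites in each library. A gene was called marked when a peak overlapped the window of 1 kb on either side of any of its curated TSSs by at least 1 bp. By this count 30 of the 38 Hox genes were marked in WT ND, 33 in KO ND, 33 in WT LID and 37 in KO LID. Among all protein-coding genes the marked share was 6.43%, 8.67%, 6.50% and 17.4% in the same libraries. The same 30 members were marked in all 4 libraries, against 4.17% of all genes, and the count stayed at 30 when KO LID was left out. Hoxb2 was the 1 member with no H3K27me3 in any library, a state found for 82.3% of all genes.

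H3K4me3 was less frequent at Hox genes than H3K27me3 and did not stand above the genome. It marked 20 members in WT ND, 21 in KO ND, 20 in WT LID and 19 in KO LID, and the shares among all genes were 62.2%, 62.5%, 62.9% and 60.0%. In all 4 libraries it was found at 10 members, against 56.6% of all genes, and in none at 8 members, against 34.1%. Both marks together were found at 14, 18, 16 and 18 members in WT ND, KO ND, WT LID and KO LID, where 5.01%, 6.55%, 5.21% and 10.7% of all genes carried both. Members with H3K4me3 alone numbered 6 in WT ND, 3 in KO ND, 4 in WT LID and 1 in KO LID.

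The paralog number ordered the marks. Every member of paralog groups 5 to 13 had H3K27me3 in all 4 libraries, apart from Hoxd1 no member of groups 1 and 2 did, and groups 3 and 4 were split. In the tier of paralogs 9 to 13, 16 of 16 members were marked in each library. In the tier 4 to 8, 12 of 15 were marked in WT ND, 13 in KO ND, 14 in WT LID and 15 in KO LID. In the tier 1 to 3, 2 of 7 were marked in WT ND, 4 in KO ND, 3 in WT LID and 6 in KO LID. H3K4me3 ran less clearly with number, at 5 to 6 of 7 in the low tier, 6 to 8 of 15 in the middle tier and 6 to 8 of 16 in the high tier.

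**Figure D1:**
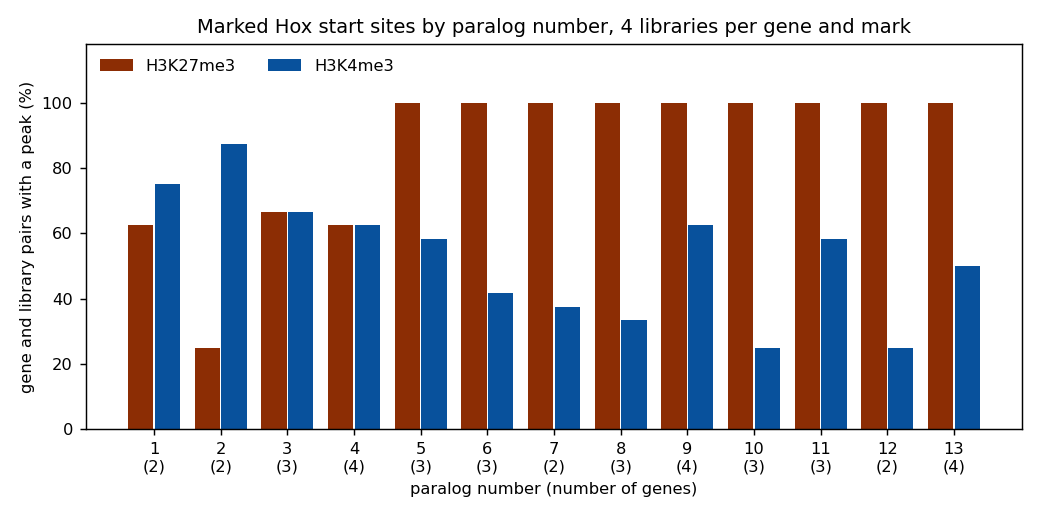
Bars give, for each paralog number, the share in percent of gene and library pairs with a peak within 1 kb of a TSS, brown for H3K27me3 and blue for H3K4me3, with the number of genes in brackets. H3K27me3 stands at 100% from paralog 5 to 13, with 12 of 12 pairs at paralog 5, and at 2 of 8 pairs for paralog 2, where H3K4me3 has 7 of 8.

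The window of 1 kb on either side of the TSS of the RefSeq Select transcript showed the same pattern in bases covered by peaks. The median member had its whole window under H3K27me3 in each library, while its median cover by H3K4me3 was 179 bp in WT ND, 361 bp in KO ND and 250.5 bp in both LID libraries. Across the 4 libraries 7 members carried H3K27me3 alone, namely Hoxa9, Hoxb8, Hoxb13, Hoxc5, Hoxc6, Hoxc8 and Hoxc10. A further 6 carried both marks in every library, namely Hoxa5, Hoxb6, Hoxd1, Hoxd8, Hoxd9 and Hoxd13. The remaining members, apart from Hoxb2 with H3K4me3 alone throughout, changed class between libraries.

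**Figure D2:**
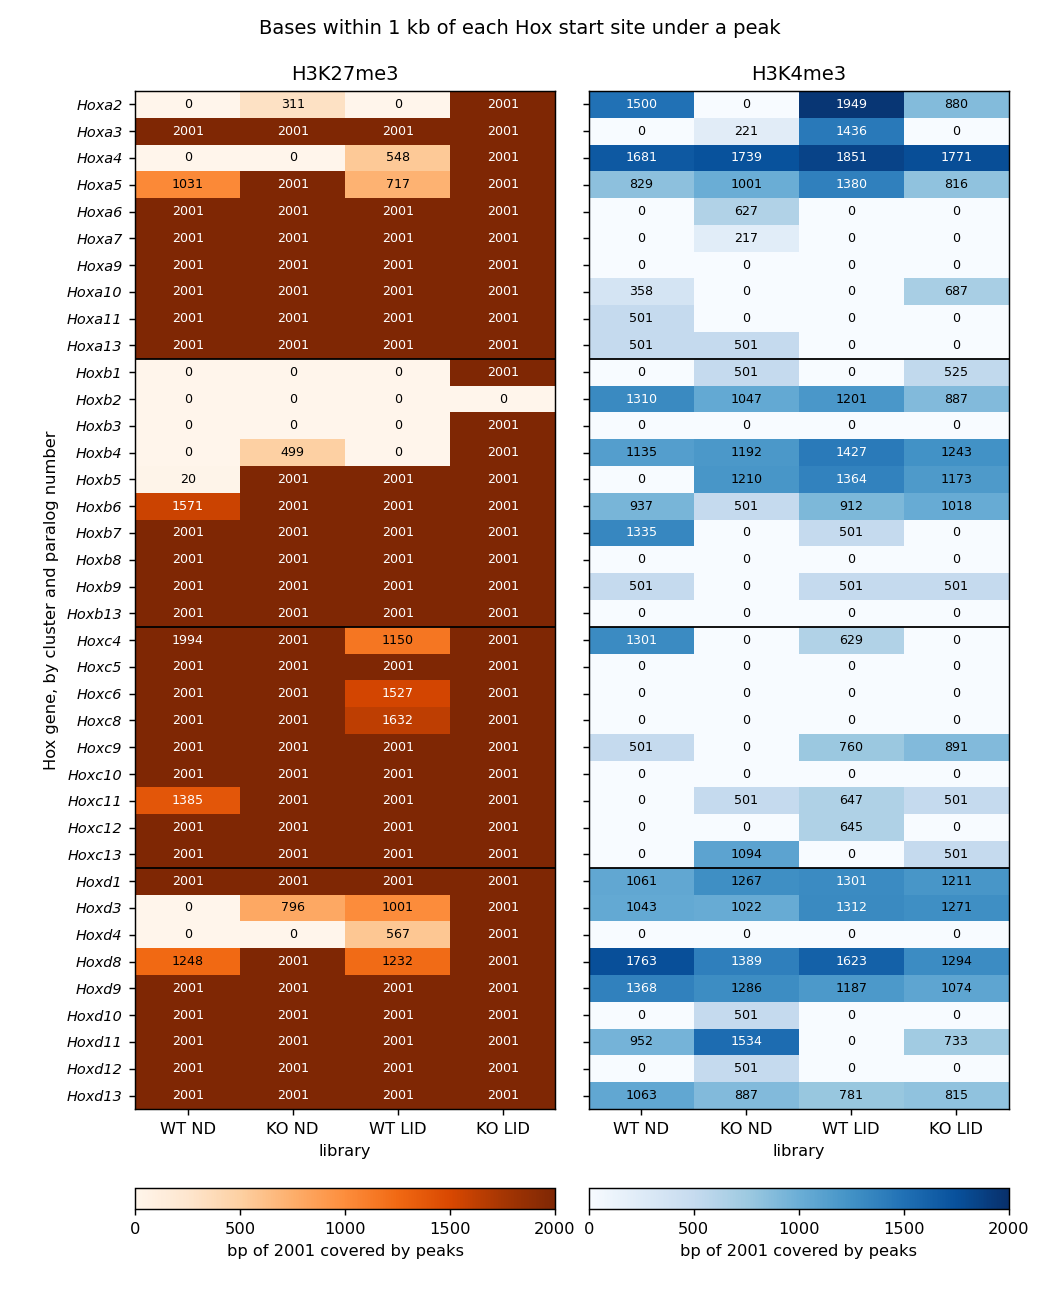
Each cell gives the bp within 1 kb on either side of the TSS covered by peaks of H3K27me3 (left) or H3K4me3 (right) for 1 gene (rows, by cluster and paralog number) in 1 library (columns). The H3K27me3 panel is at its full window over most of its rows and empty at Hoxb2, and H3K4me3 is above 0 bp in all 4 libraries at Hoxa4, Hoxb4, Hoxd8 and Hoxd9, among others.

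Each cluster differed in how much of its length lay under H3K27me3. The span from the first to the last of the examined members was 98.5 kb for Hoxa, 173.9 kb for Hoxb, 115.7 kb for Hoxc and 96.9 kb for Hoxd. In WT ND peaks covered 56.6% of Hoxa, 29.5% of Hoxb, 76.5% of Hoxc and 44.7% of Hoxd. In WT LID the shares were 54.7%, 33.4%, 73.1% and 63.6%. In KO ND they were 65.9%, 44.8%, 93.3% and 73.9%, above WT ND in each cluster. In KO LID they were 90.6%, 78.9%, 96.3% and 96.2%. Hoxb therefore had the lowest share in all 4 libraries, and Hoxc the highest in all 4, although in KO LID it was within 0.1 percentage points of Hoxd.

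**Figure D3:**
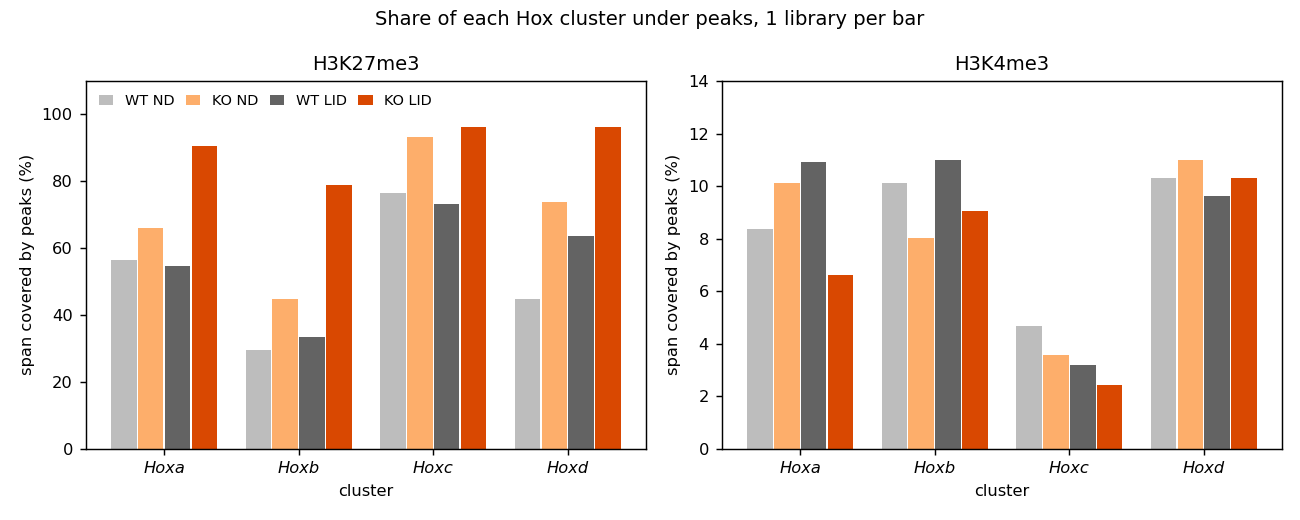
Bars give the percent of each cluster's span under peaks of H3K27me3 (left) and H3K4me3 (right, on a shorter axis) in 1 library each. H3K27me3 runs from 29.5% of Hoxb in WT ND to 96.3% of Hoxc in KO LID, and H3K4me3 from 2.41% of Hoxc in KO LID to 11.0% of Hoxb in WT LID.

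In the Hoxa cluster on chromosome 6 one long H3K27me3 domain ran over the genes with high numbers and ended near Hoxa5. Peaks less than 5 kb apart were joined into domains here. In WT ND the domain was 65.1 kb long and its border on the side of the low-numbered genes lay 3117 bp downstream of the TSS of Hoxa5, a gene known for its role in lung development. In KO ND this border lay 5720 bp downstream of the same TSS, in a domain of 81.2 kb. In WT LID it lay 284 bp upstream of the TSS, in a domain of 69.7 kb. These 3 borders therefore fell within 6004 bp of each other, on either side of the Hoxa5 TSS, and each of these libraries had further short domains of 1.0 to 7.9 kb on the side of the low-numbered genes. In KO LID one domain of 148.9 kb covered all 10 members, with no border inside the cluster.

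Hoxa5 carried both marks at its TSS in each library. Its H3K27me3 cover was 1031 bp in WT ND, 717 bp in WT LID and the whole window in KO ND and KO LID, and H3K4me3 covered 829, 1001, 1380 and 816 bp in WT ND, KO ND, WT LID and KO LID. Both WT libraries were thus below both KO libraries for H3K27me3, and the share of all genes with this order was not counted. On the low-numbered side Hoxa4, which helps to set vertebral identity in the neck, had 1681, 1739, 1851 and 1771 bp of H3K4me3 in WT ND, KO ND, WT LID and KO LID. Its H3K27me3 cover was 0 bp in both ND libraries, 548 bp in WT LID and the whole window in KO LID.

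Hoxa2, the selector gene of the second pharyngeal arch, had more H3K27me3 and less H3K4me3 in both KO libraries than in both WT libraries. H3K27me3 covered 0 bp in WT ND and 0 bp in WT LID, against 311 bp in KO ND and the whole window in KO LID. H3K4me3 covered 1500 bp in WT ND and 1949 bp in WT LID, against 0 bp in KO ND and 880 bp in KO LID. With 2 libraries on each side, the share of all genes ordered in this way was not counted. With gained meaning marked in KO and not in WT, and lost the reverse, 3.30% of all genes gained H3K27me3 in KO against WT on ND and 11.0% on LID, and 2.13% lost H3K4me3 on ND and 4.34% on LID.

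Hoxa3, needed for the thymus, parathyroid and a normal thyroid, has its annotated TSS between those of Hoxa6 and Hoxa7, far from its coding exons, and therefore inside the domain. It had the whole window of H3K27me3 in every library, and its H3K4me3 cover was 0 bp in WT ND, 221 bp in KO ND, 1436 bp in WT LID and 0 bp in KO LID. Far downstream of this TSS, toward Hoxa2 and inside the Hoxa3 gene, an H3K4me3 peak lay at chr6:52172130-52173198 in WT ND, and peaks of KO ND and KO LID overlapped it. WT LID had no peak there, but had one at chr6:52174983-52176229, which a peak of KO ND at chr6:52175047-52177311 overlapped. Hoxa6, Hoxa7, Hoxa9, Hoxa10, Hoxa11 and Hoxa13 had the whole window under H3K27me3 in the 4 libraries. Their H3K4me3 came and went in small peaks of up to 687 bp within the window. Hoxa6 had 627 bp and Hoxa7 217 bp in KO ND and none elsewhere. Hoxa10, known for its role in the uterus, had 358 bp in WT ND and 687 bp in KO LID. Its other curated TSS had 0 bp of H3K4me3 in every library. Hoxa11 had 501 bp in WT ND alone, and Hoxa13, a gene of the distal limb, had 501 bp in both ND libraries and 0 bp in both LID libraries. A width of 501 bp is the narrowest that the H3K4me3 lists contain.

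**Figure D4:**
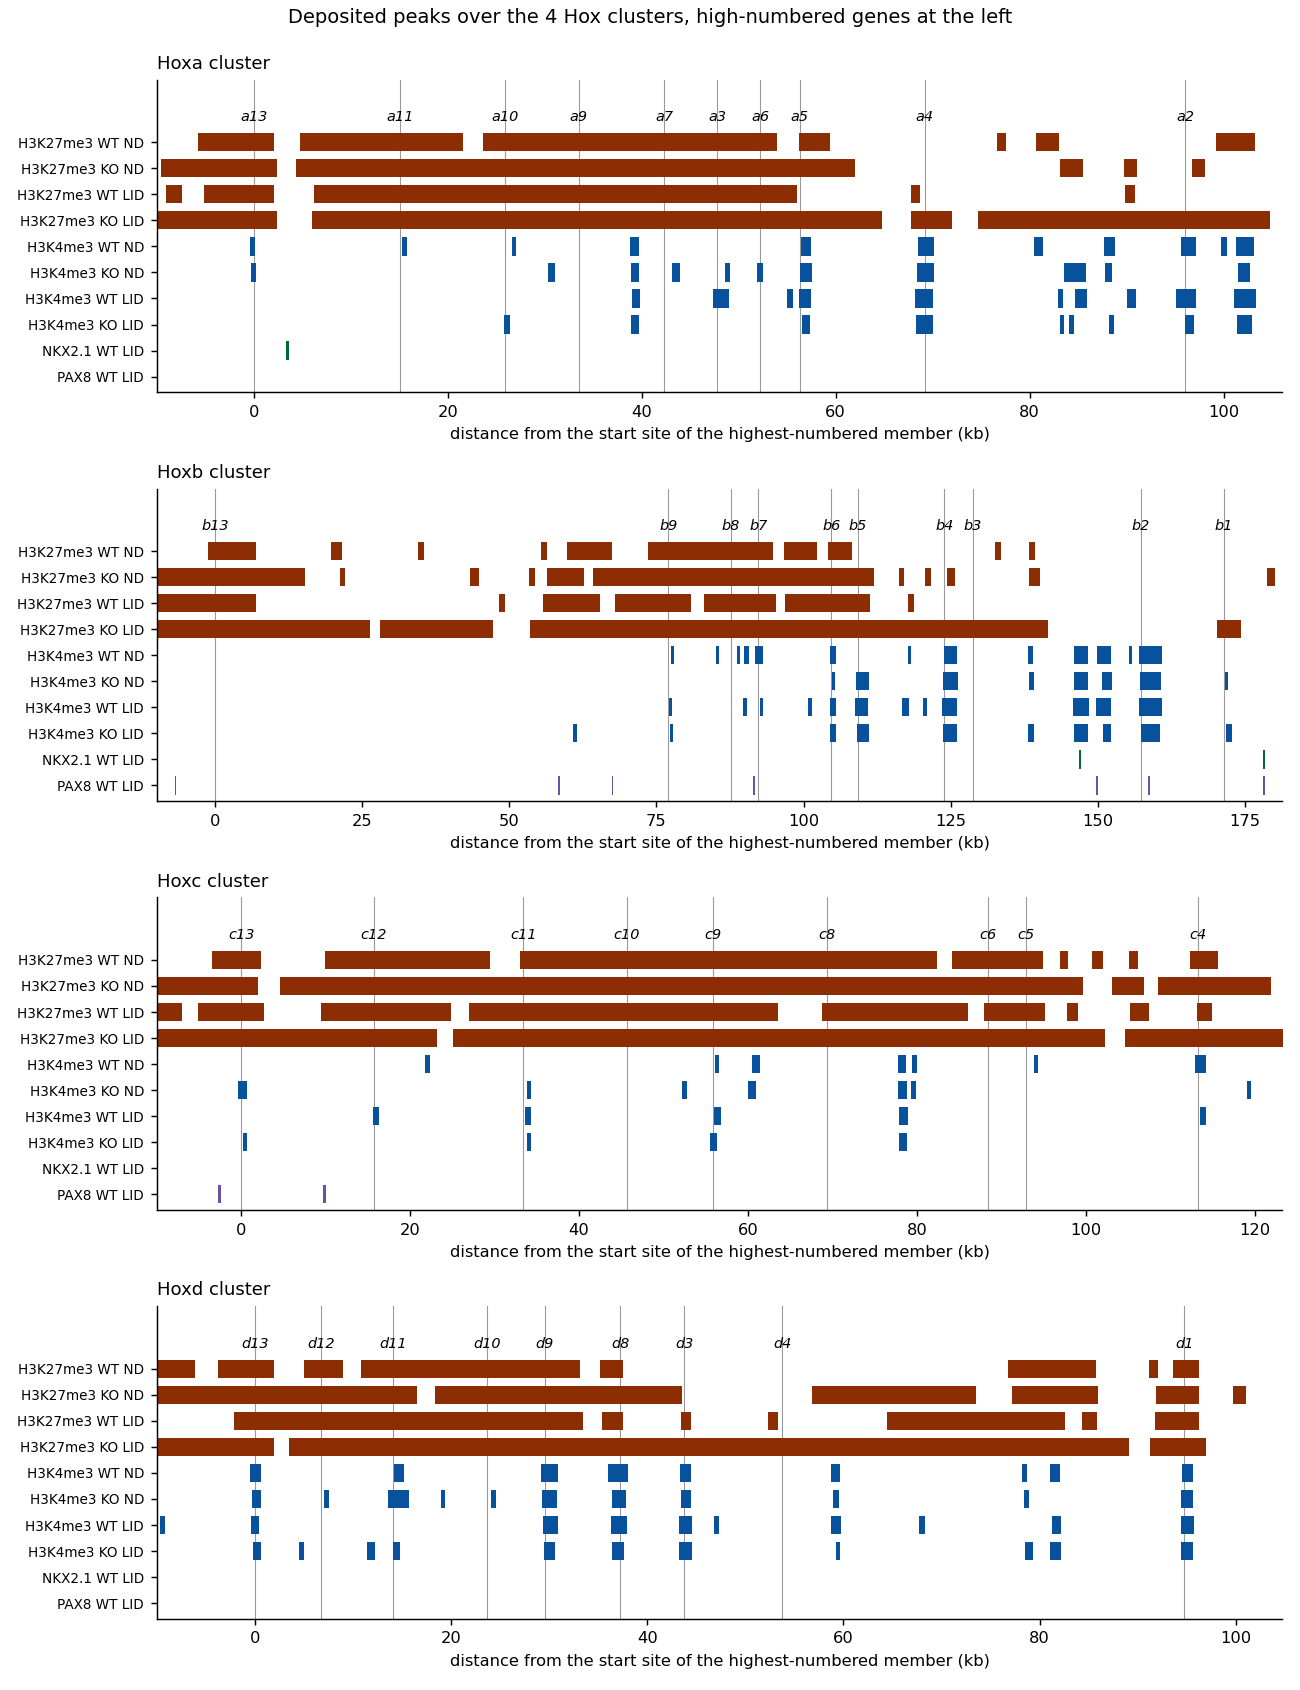
Horizontal bars are deposited peaks of H3K27me3 (brown), H3K4me3 (blue), NKX2.1 (green) and PAX8 (violet), 1 library per row, against the distance in kb from the TSS of the highest-numbered gene of each cluster, with 10 kb shown beyond the members. Grey lines mark each TSS by cluster letter and paralog number. The brown domains lie at the left in Hoxa, in the middle of Hoxb and at b13, fill most of Hoxc, and leave the stretch around d3 and d4 in Hoxd mostly open except in KO LID.

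In the Hoxb cluster on chromosome 11 the place of the H3K27me3 border differed by library. In WT ND the domain with most members ran for 34.6 kb from 3420 bp upstream of Hoxb9 to 981 bp upstream of Hoxb5. In WT LID it ran for 55.5 kb and ended 2072 bp downstream of the Hoxb5 TSS. In KO ND it ran for 72.4 kb and ended 1775 bp downstream of the Hoxb4 TSS. In KO LID it ran for 88.1 kb and ended 12689 bp downstream of the TSS of Hoxb3. In KO ND the part beyond the Hoxb5 gene was reached only by joining short separate peaks. The long KO ND peak of 47776 bp ended at chr11:96306235, close to the end of the WT LID domain at chr11:96305584. With gaps joined, the border lay further toward the low-numbered genes in KO than in WT on either diet, with 1 library each. Beyond it WT ND had a separate domain of 6.8 kb, KO ND one of 1.8 kb and WT LID one of 1.0 kb, all in the Hoxb3 locus, and KO LID had one of 4.0 kb over Hoxb1.

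Hoxb2 stood beyond this border in all 4 libraries, and Hoxb4 in the 2 WT libraries alone. In KO ND Hoxb4 fell inside only because gaps of up to 5 kb were joined. At Hoxb2, which acts in the hindbrain, H3K4me3 covered 1310, 1047, 1201 and 887 bp in WT ND, KO ND, WT LID and KO LID, and H3K27me3 covered none. The peak over Hoxb2 was 3892 bp wide in WT ND, 3481 bp in KO ND, 3922 bp in WT LID and 3153 bp in KO LID, and in each library it was the widest H3K4me3 peak in any Hox cluster. Its rank by width in the whole list was 324, 499, 319 and 560. Hoxb4, known for its effect on blood stem cells, had 1135, 1192, 1427 and 1243 bp of H3K4me3. Its H3K27me3 cover was 0 bp in both WT libraries, 499 bp in KO ND and the whole window in KO LID.

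A stretch of 28.8 kb around Hoxb2, at chr11:96335816-96364644 of GRCm38, had no H3K27me3 peak in any of the 4 libraries, and without KO LID the free stretch at this end reached 33.8 kb and took in Hoxb1. The stretch around Hoxb2 was the 1 segment of 5 kb or more in the 4 clusters that stayed free of H3K27me3 throughout. Without KO LID, free stretches of 7.9 kb were also found in Hoxa, with Hoxa4 inside, and in Hoxd. In the stretch around Hoxb2, H3K4me3 was present in all 4 libraries over 2.3 kb in intron 2 of Hoxb3. It was also present in all 4 over 1.4 kb in an exon of Hoxb3 further downstream and over 3.2 kb at Hoxb2. Hoxb3 has 2 curated TSSs. At the outer one, which lies downstream of Hoxb4, no library had H3K4me3 and KO LID alone had H3K27me3, with the whole window. At the inner one H3K4me3 covered 568 bp in WT ND and 837 bp in WT LID and 0 bp in both KO libraries, and H3K27me3 covered none.

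Hoxb5 lay on the border itself. Its H3K27me3 cover was 20 bp in WT ND and the whole window in the other 3 libraries, and its H3K4me3 cover was 0 bp in WT ND, 1210 bp in KO ND, 1364 bp in WT LID and 1173 bp in KO LID. WT ND was thus the low library for both marks. Hoxb6 carried both marks throughout, with 1571 bp of H3K27me3 in WT ND and the whole window in the others, beside 937, 501, 912 and 1018 bp of H3K4me3. Hoxb7 had the whole window of H3K27me3 in each library, and its H3K4me3 was 1335 bp in WT ND and 501 bp in WT LID but 0 bp in both KO libraries. Hoxb9, active in the thorax, had 501 bp of H3K4me3 in each library but KO ND, where it had none. Hoxb1, a hindbrain gene at the far end, had H3K27me3 in KO LID alone, with the whole window, and 501 and 525 bp of H3K4me3 in KO ND and KO LID against none in WT. Hoxb13, which lies far from the other members, had H3K27me3 alone, and in all 4 libraries no H3K4me3 peak lay in the 60.8 kb that start at its TSS.

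The upstream sequences of Hoxb4 and Hoxb8 are shown because these genes lay on either side of the border in both WT libraries. In both KO libraries they lay inside 1 domain, in KO ND only through joined gaps. Hoxb4 had H3K4me3 in every library and Hoxb8 had H3K27me3 alone. The 250 bases before each TSS are from RefSeq (GRCm38.p6), both on the plus strand at chr11:96318017-96318266 and chr11:96281655-96281904, and capitals mark CG dinucleotides, the sites of CpG methylation.
Hoxb4: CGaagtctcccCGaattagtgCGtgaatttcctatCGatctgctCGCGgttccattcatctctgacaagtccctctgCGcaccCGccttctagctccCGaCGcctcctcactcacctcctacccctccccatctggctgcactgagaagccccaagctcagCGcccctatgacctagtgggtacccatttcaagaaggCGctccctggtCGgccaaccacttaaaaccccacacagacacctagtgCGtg
Hoxb8: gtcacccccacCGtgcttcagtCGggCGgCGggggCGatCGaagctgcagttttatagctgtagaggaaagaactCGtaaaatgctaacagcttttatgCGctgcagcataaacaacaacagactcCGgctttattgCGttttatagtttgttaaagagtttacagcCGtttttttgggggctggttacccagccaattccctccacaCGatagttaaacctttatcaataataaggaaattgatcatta
The Hoxb4 sequence held 14 CG dinucleotides and 58.0% G or C, and the Hoxb8 sequence held 12 and 44.4%, so that the number of CG dinucleotides differed by 2. Over 32851 such sequences in the RefSeq table the median was 6, and 92.1% held at least 1.

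In the Hoxc cluster on chromosome 15 H3K27me3 covered all 9 members in each library. In KO ND and KO LID a single domain of 135.0 kb and 140.0 kb held the whole cluster. In WT ND it was broken into 3 domains, of which the longest ran for 96.2 kb from 5738 bp upstream of Hoxc12 to 7105 bp upstream of Hoxc4, and in WT LID into 5. Segments covered in all 4 libraries made up 63.6% of the Hoxc span, against 48.3% of Hoxa, 22.6% of Hoxb and 39.5% of Hoxd. Without KO LID they made up 65.0%, 48.3%, 22.6% and 39.5%.

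H3K4me3 was sparse in Hoxc, at 2, 2, 4 and 3 of 9 members in WT ND, KO ND, WT LID and KO LID, and every base of it lay under H3K27me3. Hoxc4, at the low-numbered end, had 1301 bp in WT ND and 629 bp in WT LID against 0 bp in both KO libraries. Its H3K27me3 cover was 1994 bp in WT ND, 1150 bp in WT LID and the whole window in both KO libraries. At the other end Hoxc13, a gene of hair and nails, had 1094 bp of H3K4me3 in KO ND and 501 bp in KO LID against 0 bp in both WT libraries. These 2 end genes therefore differed between WT and KO in opposite directions. Hoxc9, which sets thoracic motor neuron identity, had 501 bp in WT ND, 0 bp in KO ND, 760 bp in WT LID and 891 bp in KO LID. Hoxc11 had 0, 501, 647 and 501 bp in the same order, and Hoxc12 had 645 bp in WT LID alone. Hoxc5, Hoxc6, Hoxc8 and Hoxc10 had no H3K4me3 within 1 kb of a curated TSS. A peak present in all 4 libraries over 815 bp lay 8926 bp downstream of the Hoxc8 TSS, in the Hoxc6 locus but outside its curated transcripts.

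In the Hoxd cluster on chromosome 2 a domain covered the high-numbered genes Hoxd8 to Hoxd13 and ended close to Hoxd8 or Hoxd3. Its border lay 247 bp downstream of the Hoxd8 TSS in WT ND and 231 bp downstream of it in WT LID, so that the WT borders were 16 bp apart. In KO ND the border lay 205 bp upstream of the Hoxd3 TSS, and in KO LID one domain of 122.4 kb covered all 9 members. Beyond the border in KO ND the next domain began 3006 bp downstream of the Hoxd4 TSS, inside the Hoxd4 gene, and in WT ND the next one was 9.0 kb long and began beyond the Hoxd4 gene. Both of these domains reached past the end of the Hoxd3 gene. In WT LID 2 peaks of 1.0 kb lay beyond the border, near the TSSs of Hoxd3 and Hoxd4. They were followed by a domain of 21.4 kb that began beyond the Hoxd4 gene and also reached past the end of the Hoxd3 gene. At the low-numbered end Hoxd1, a gene of pain-sensing neurons, had the whole window of H3K27me3 in each library and 1061, 1267, 1301 and 1211 bp of H3K4me3.

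Hoxd3 and Hoxd4 lay in the gap. At Hoxd3, a paralog of Hoxa3 that shapes the first neck vertebrae, H3K27me3 covered 0 bp in WT ND, 796 bp in KO ND, 1001 bp in WT LID and the whole window in KO LID, while H3K4me3 was steadier at 1043, 1022, 1312 and 1271 bp. Hoxd4, a gene of the hindbrain and neck, had no H3K4me3 in any library, and its H3K27me3 cover was 0 bp in both ND libraries, 567 bp in WT LID and the whole window in KO LID. Hoxd8 had 1763, 1389, 1623 and 1294 bp of H3K4me3 in WT ND, KO ND, WT LID and KO LID. Its H3K27me3 covered 1248 bp in WT ND and 1232 bp in WT LID against the whole window in both KO libraries, as at Hoxa5. At the other curated TSS of Hoxd8, H3K27me3 covered the whole window in every library, so this difference was absent there. Hoxd9 had 1368, 1286, 1187 and 1074 bp of H3K4me3, and Hoxd13, which shapes the digits, had 1063, 887, 781 and 815 bp. Both had the whole window of H3K27me3 throughout. Hoxd11 had 952, 1534, 0 and 733 bp of H3K4me3, and Hoxd10 and Hoxd12 had 501 bp in KO ND and none elsewhere. The order of libraries for these values is WT ND, KO ND, WT LID and KO LID.

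The upstream sequences of Hoxd13 and Hoxd4 are shown because they differ widely in CG content within 1 cluster, Hoxd13 with both marks in all libraries and Hoxd4 with no H3K4me3 in any. The 250 bases before each TSS are from RefSeq (GRCm38.p6) on the plus strand, at chr2:74667975-74668224 and chr2:74721728-74721977, with CG dinucleotides in capitals.
Hoxd13: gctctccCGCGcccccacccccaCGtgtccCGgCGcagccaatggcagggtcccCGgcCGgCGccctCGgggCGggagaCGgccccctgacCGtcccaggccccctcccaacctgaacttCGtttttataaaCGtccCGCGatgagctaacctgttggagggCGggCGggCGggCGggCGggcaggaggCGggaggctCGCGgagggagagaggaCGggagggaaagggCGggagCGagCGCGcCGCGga
Hoxd4: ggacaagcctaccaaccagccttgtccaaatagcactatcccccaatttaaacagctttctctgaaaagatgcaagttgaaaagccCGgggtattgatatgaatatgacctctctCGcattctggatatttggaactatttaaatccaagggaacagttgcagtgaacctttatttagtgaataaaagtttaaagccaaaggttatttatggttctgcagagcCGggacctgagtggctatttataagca
The Hoxd13 sequence held 31 CG dinucleotides and 74.4% G or C, against 3 and 40.4% for Hoxd4. In the window of 1 kb on either side of the TSS, the ratio of observed to expected CpG had a median of 0.604 over the Hox genes, from 0.215 to 0.981, against 0.502 over all protein-coding genes. Its median was 0.729 at the 10 members with H3K4me3 in 4 libraries, 0.632 at the 20 with it in 1 to 3, and 0.477 at the 8 without it. The ranges overlapped, since Hoxb2 with H3K4me3 in each library had 0.352, so this is a description only. By cluster the median was 0.634 in Hoxa, 0.582 in Hoxb, 0.553 in Hoxc and 0.705 in Hoxd.

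Hox peaks were among the widest of the H3K27me3 lists. The widest peak of the whole list lay in Hoxc in WT ND, with 49314 bp over Hoxc8, Hoxc9, Hoxc10 and Hoxc11, and in KO ND, with 95057 bp. In WT LID it lay in Hoxa, with 49736 bp. In KO LID the peaks ranked 2, 3 and 4 lay in Hoxb, Hoxd and Hoxc, with 88072, 85629 and 77221 bp. The median width of Hox peaks was 3962 bp in WT ND, 5291.5 bp in KO ND, 7217 bp in WT LID and 28262.5 bp in KO LID, against 1363, 1765, 1661 and 1517 bp in the whole lists. The clusters held 3.20% of all bases under H3K27me3 in WT ND, 2.43% in KO ND, 3.44% in WT LID and 0.783% in KO LID. H3K4me3 peaks in the clusters were narrower than the rest, with medians of 887 to 930.5 bp against 1301 to 1460 bp.

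Between genotypes, H3K27me3 peaks covered more of the clusters in KO than in WT on either diet. On ND the covered length of the 4 clusters was 238.9 kb in WT and 322.4 kb in KO, a ratio of 1.35, while the whole list grew 1.77-fold. By cluster the ratio was 1.16 in Hoxa, 1.52 in Hoxb, 1.22 in Hoxc and 1.66 in Hoxd. On LID the length was 258.2 kb in WT and 431.3 kb in KO, a ratio of 1.67, while the whole list grew 7.35-fold. Since 49.2% of the spans on ND and 53.2% on LID were already covered in WT, the cluster ratios were capped and cannot be read against the whole list. When each list was limited to its 2631 widest peaks, the number in the shortest list, KO LID covered 423.5 kb and marked 35 members, without Hoxa4 and Hoxb1. This limit kept peaks of at least 4869 bp in KO LID, and Hox peaks are among the widest, so it could remove little of their cover. Whether the extent in KO comes from the genotype or from the library cannot be told apart with 1 library each.

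At start sites, H3K27me3 was gained in KO against WT at 3 members on ND (Hoxa2, Hoxb4 and Hoxd3) and at 4 on LID (Hoxa2, Hoxb1, Hoxb3 and Hoxb4), against 3.30% and 11.0% of all genes. It was lost at none, where 1.07% of all genes lost it on ND and 0.0571% on LID. On LID 4 of 38 members is close to the share of all genes. Since 30 and 33 members were already marked in WT, 8 members on ND and 5 on LID could gain it, all of them at paralog numbers 1 to 4. By diet, H3K27me3 was gained on LID in WT at 3 members (Hoxa4, Hoxd3 and Hoxd4) and in KO at 4 (Hoxa4, Hoxb1, Hoxb3 and Hoxd4), against 2.07% and 8.92% of all genes, and was lost at none, against 2.01% and 0.152%. These 4 comparisons share libraries and are not independent.

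H3K4me3 changed at more members than H3K27me3 and in both directions. In KO against WT it was gained at 9 members and lost at 8 on ND, where 2.39% and 2.13% of all genes did so. On LID it was gained at 4 and lost at 5, where 1.41% of all genes gained it and 4.34% lost it. Hoxb3, Hoxb7 and Hoxc4 lost it on both diets, and Hoxb1 and Hoxc13 gained it on both. The share of all genes that did so on both diets was not counted. The cover behind these calls was as low as 501 bp at Hoxb1, Hoxb7 and Hoxc13. By diet it was gained on LID at 4 members and lost at 4 in WT, against 2.54% and 1.79% of all genes. In KO it was gained at 4 and lost at 6, against 1.62% and 4.07%. Of the 9 members gained on ND, 7 had at most 627 bp covered, and Hoxb5 and Hoxc13 had 1210 and 1094 bp.

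Much of the H3K4me3 in the clusters lay under H3K27me3. In WT ND 53.5% of the 41.14 kb of H3K4me3 was covered by H3K27me3 peaks, in KO ND 66.5% of 38.67 kb, in WT LID 48.1% of 42.94 kb and in KO LID 79.9% of 35.02 kb. In the whole lists the shares were 6.52%, 9.22%, 7.03% and 16.8%. H3K27me3 itself covered 49.2% of the 4 spans in WT ND, 66.5% in KO ND, 53.2% in WT LID and 88.9% in KO LID. With the clusters pooled, H3K4me3 thus lay under H3K27me3 about as often as the spans did, and less often in KO LID. The clusters differed in this. In Hoxd the shares were 75.0%, 91.9%, 76.0% and 100% in the same order, above 44.7%, 73.9%, 63.6% and 96.2% of the span. Hoxc was also above its span share in every library. Hoxb was near its span share in WT ND and below it elsewhere, and Hoxa was below in WT and above in KO. Of the H3K4me3 in each cluster, Hoxb had the lowest share under H3K27me3 in each library, at 30.3%, 34.1%, 29.0% and 55.4%, and Hoxc had 100% in each.

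MicroRNA genes within the clusters differed in how many libraries had H3K27me3 over them. The mature sequences are from RefSeq, shown with the seed (bases 2 to 8) in capitals because the miR-10 and the miR-196 genes each share 1 seed across clusters.
mmu-miR-10a-5p: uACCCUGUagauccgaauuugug
mmu-miR-10b-5p: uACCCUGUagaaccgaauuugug
mmu-miR-196a-5p: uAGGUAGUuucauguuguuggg
mmu-miR-196b-5p: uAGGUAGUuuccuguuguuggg
Mir10a, 1048 bp upstream of Hoxb4, had H3K27me3 over its hairpin in KO LID alone, and Mir10b, 4125 bp downstream of the Hoxd4 TSS, in both KO libraries and in neither WT library. Mir196b near Hoxa9 and Mir196a-2 near Hoxc9 had H3K27me3 in 4 of 4 libraries, and Mir196a-1 near Hoxb9 in 3, all but WT ND. The genes with the miR-10 seed were thus marked in 1 and 2 libraries and those with the miR-196 seed in 3 or 4. Seed and position cannot be told apart here, because the former lie by Hoxb4 and Hoxd4 and the latter by Hoxa9, Hoxb9 and Hoxc9. H3K4me3 overlapped the hairpins of Mir196b and Mir196a-2 in KO ND and no other hairpin or library.

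NKX2.1 and PAX8, factors that define thyroid follicular cells, had few peaks in the clusters. Over the 4 spans together, 0.485 Mb, there were 2 NKX2.1 peaks of 46636 in the list and 6 PAX8 peaks of 51586. For each factor the paper reports fewer peaks than the list holds, and the reason is not known here. An NKX2.1 peak lay within 5 kb of a TSS at 2 of 38 members, Hoxa13 and Hoxb3, against 35.4% of all genes. A PAX8 peak did so at 5 of 38, Hoxb2, Hoxb3, Hoxb7, Hoxb8 and Hoxc13, against 42.0% of all genes. Hoxd had none of either factor. Each of these is a single library, so the positions have no replicate check.

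Peaks at Hoxb3 and Hoxb2 coincided with the H3K4me3 of the stretch free of H3K27me3. The NKX2.1 peak at chr11:96341140-96341439 lay in intron 2 of Hoxb3, 2480 bp upstream of its inner TSS, under H3K4me3 in 4 of 4 libraries. A PAX8 peak at chr11:96344019-96344318 lay 399 bp downstream of that TSS in an exon of Hoxb3, under H3K4me3 in both WT libraries and neither KO library. A PAX8 peak at chr11:96352876-96353175 lay 1393 bp downstream of the Hoxb2 TSS in exon 2, under H3K4me3 in 4 of 4. None of the 3 overlapped H3K27me3. The PAX8 peaks near Hoxb7, 726 bp upstream of its TSS, and near Hoxc13, 2574 bp upstream and outside the span, lay instead under H3K27me3 in 4 of 4 libraries, and H3K4me3 of WT ND also reached the former. The other PAX8 peaks in the spans were over 5 kb from a TSS, at 18571 and 9491 bp upstream of Hoxb9 and 5805 bp upstream of Hoxc12, with H3K27me3 in 3, 2 and 4 libraries. The NKX2.1 peak by Hoxa13, 3533 bp downstream of its TSS, lay under neither mark, in a gap between H3K27me3 peaks in each library.

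The sequences of 3 factor peaks are shown, 2 because they lay under H3K4me3 in every library and 1 because both factors had a peak there. All are from GRCm38.p6 on the plus strand and 300 bp long, and capitals mark matches, on either strand, to CAAGTG, the core of NKX2 sites, or GCNTGAC, a core of paired-domain sites. The first is the NKX2.1 peak in Hoxb3, the second the PAX8 peak in Hoxb2, and the third an NKX2.1 peak at chr11:96372446-96372745, 6837 bp downstream of the Hoxb1 TSS and outside the span, which overlapped a PAX8 peak.
NKX2.1 at Hoxb3: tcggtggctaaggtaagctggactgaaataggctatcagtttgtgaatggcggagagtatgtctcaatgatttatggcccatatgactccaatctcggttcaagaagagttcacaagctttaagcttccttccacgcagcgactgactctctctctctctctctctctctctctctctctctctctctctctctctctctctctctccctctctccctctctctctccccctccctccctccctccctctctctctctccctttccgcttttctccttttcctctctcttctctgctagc
PAX8 at Hoxb2: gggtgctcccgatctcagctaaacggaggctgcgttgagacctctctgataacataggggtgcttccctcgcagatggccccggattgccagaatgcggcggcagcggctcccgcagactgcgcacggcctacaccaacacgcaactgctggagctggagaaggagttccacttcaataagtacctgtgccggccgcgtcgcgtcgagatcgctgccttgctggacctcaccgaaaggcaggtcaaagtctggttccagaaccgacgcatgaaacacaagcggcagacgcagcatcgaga
NKX2.1 beyond Hoxb1: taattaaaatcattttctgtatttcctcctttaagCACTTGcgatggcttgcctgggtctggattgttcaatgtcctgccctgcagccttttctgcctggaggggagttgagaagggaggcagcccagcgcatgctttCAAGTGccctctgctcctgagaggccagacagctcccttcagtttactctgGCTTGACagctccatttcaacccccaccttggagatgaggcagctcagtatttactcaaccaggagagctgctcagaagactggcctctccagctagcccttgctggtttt
The first 2 held no match to either core. The third held 2 matches to CAAGTG and 1 to GCNTGAC, and it lay under neither histone mark in any library. Within the spans no NKX2.1 peak of 2 held CAAGTG, against 32.4% of all NKX2.1 peaks, and no PAX8 peak of 6 held GCNTGAC, against 19.8% of all PAX8 peaks. These are matches of letters in a window, and a window without them says nothing about the factor. The peak in Hoxb3 contained an unbroken run of 120 bases of c and t, and 7 of the 46633 NKX2.1 peaks whose sequence was read (0.0150%) held a run of pyrimidines or purines as long, where the median was 11 bases.

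Genes that work with Hox proteins or lie beside them mostly had other marks, whereas Hox-like homeobox genes often had H3K27me3 as the Hox genes did. All 9 TALE cofactors, the Pbx, Meis and Pknox homeodomain partners of Hox proteins, carried H3K4me3 in 4 of 4 libraries, and Meis2 in KO LID was the 1 case with H3K27me3, at 1503 bp. Of 9 other homeobox genes of the Hox-like kind, 5 had H3K27me3 in WT ND, 9 in KO ND, 8 in WT LID and 9 in KO LID, and 3 to 5 had H3K4me3. Of 12 Polycomb and Trithorax regulators, 11 or 12 had H3K4me3 in each library and 1 or 2 had H3K27me3, namely Cbx8 in all and Cbx2 in both KO libraries, both of them subunits of the complex that reads H3K27me3. Neighbours were mostly without H3K27me3. Of the 16 nearest protein-coding neighbours outside the Hox family, 12, 12, 13 and 12 had H3K4me3 in WT ND, KO ND, WT LID and KO LID, and 3, 2, 1 and 3 had H3K27me3. The homeobox gene Evx1 beside Hoxa13 had the whole window of H3K27me3 in each library, and Evx2 beside Hoxd13 had the whole window in all but WT LID, where it had 0 bp.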

How the data were processed

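Peak lists deposited by the authors for 8 histone libraries and 2 factor libraries of mouse thyroid were used. Per the labels and methods, reads were trimmed with Cutadapt 1.12, mapped to mm10 with Bowtie 1.2, freed of duplicates with Picard 1.110 and called with HOMER 4.10.3, in region mode for the marks and against input for the factors. For the marks, input use was not given in the sources used here. Deposited lists hold intervals only, with no score, so the depth per sample is unknown and its number of reads limits what could be called. Input libraries, the unified lists and the PCCl3 lists were not analysed here.

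A gene was marked when a peak overlapped 1 kb either side of a RefSeq TSS (GRCm38.p6) by 1 bp. Gaps under 5 kb were joined into domains, and factor peaks were set to 300 bp and counted within 5 kb of a TSS. Spans ran from the first to the last member. Every member was named in its cluster, with values per library where its class changed, a border was near or a factor peak lay within 5 kb. Members and lists, including the TALE cofactors, Hox-like genes, Polycomb and Trithorax regulators, neighbours and cell type markers, were chosen with earlier results of these data known. Coverage code was tested on simulated data. Python 3.11.15 and pysam 0.24.0 were used.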

Additional observations from a re-analysis of the deposited data

Results flagged for a closer look

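The KO minus WT difference in H3K4me3 had opposite signs on the 2 diets in Hoxa. The covered length of the cluster changed by 1.7 kb on ND and by -4.2 kb on LID. At the Hoxa3 TSS the covered bases changed by 221 bp on ND and by -1436 bp on LID. At the RefSeq Select TSS of Hoxa10 they changed by -358 bp on ND and by 687 bp on LID. The other curated TSS of Hoxa10 had 0 bp of H3K4me3 in every library. Each value rests on 1 library per group, and the difference between the diets was not tested.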

How the results depend on the processing

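No paired analysis was possible because each group had 1 library, for the same reason no replicate could be left out, and the lists carry no score to filter on. Of 89 alternative values 71 stayed within 1.5 times the reported value, among them all those for H3K27me3 marked genes and covered length. Requiring most of the window to be covered left 11 members with H3K4me3 in WT ND, 11 in KO ND, 11 in WT LID and 8 in KO LID. Peaks at least 2 times the narrowest width left 11 in KO ND, 12 in WT LID and 9 in KO LID, and 26.6 kb of H3K4me3 in WT ND and 21.3 kb in KO LID. Without joining, H3K27me3 domains numbered 31 in WT ND, 24 in KO ND, 26 in WT LID and 14 in KO LID, against 14, 12, 17 and 6, and joining gaps up to 10 kb left 8 in WT LID. Lengths and border positions of domains are given for gaps of up to 5 kb joined and were not varied. Factor windows of 1 kb and 20 kb gave 0 and 6 members for NKX2.1 and 2 and 11 for PAX8. Leaving out KO LID, an alternative chosen after seeing the data, kept the 30 members with H3K27me3 in every library.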
